A study of Mus musculus with 2 samples.

Results

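The transcription factors that direct the lineages of dendritic cells (DC) were followed here across the cell classes of mouse spleen. They were chosen by name for their known roles, as Irf4, Irf8, Spib, Batf3, Nfil3, Tcf4, Id2, Zbtb46, Klf4 and Zeb2, and all 10 were found among the 32285 genes counted. The study measured splenic DC by single-cell RNA sequencing (scRNA-seq) in WT mice and in H2-Aa cit/cit mice. The cit allele is a chemically induced splice mutation of H2-Aa, which encodes the α chain of MHC class II, and is effectively null, while WT littermates carried the intact gene. Each genotype gave 1 library, pooled from 3 untreated female mice that were 4 months old, and cells were enriched for CD11c and sorted as live CD45.2+ CD11c+ cells before capture. The WT library held 7814 cells with a median of 5492 unique molecular identifiers (UMIs) per cell, and that of the mutant, H2-Aa cit/cit, 11525 cells with a median of 5633. Pairs of values below give WT first and the mutant second. H2-Aa itself stood at 5410 and 66.2 counts per 1e+06 UMIs (CPM), in the direction of the labels. The libraries shared 31 cell barcodes.

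Conventional DC fall into cDC1, which cross-present antigen to CD8+ T cells, and cDC2, which mainly prime CD4+ T cells, while plasmacytoid DC (pDC) make type I interferon. Irf8, Batf3, Id2 and Nfil3 are the factors of the cDC1 branch, Irf4, Klf4 and Zeb2 those most often tied to cDC2, and Tcf4 and Spib those of pDC, with Zbtb46 shared by the conventional branches. Tcf4 encodes an E protein that activates pDC genes, Id2 a small partner that keeps E proteins off DNA, and Zeb2 a repressor whose loss lets Id2 and the cDC1 program through.

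No factor was used to define a class. Cells were gated by how many genes of a marker list had a UMI (5 or more of 12 for cDC1-like, 4 or more of 15 for cDC2-like and 6 or more for mature or pDC-like cells), with no member and none of the 37 other regulators described below in any list. This left 5739 WT and 8847 mutant cells in 13 classes, of which 11 held at least 30 cells in each library and were compared. cDC1-like cells numbered 471 and 606, Ffar2+ cDC2-like cells 2018 and 4029, Ccr2+ cDC2-like cells 205 and 715, and mature DC-like cells without cDC1 genes 1693 and 1104. Classes named as without cDC1 genes, and the cDC2-like classes, allowed up to 2 of the 12 cDC1 markers. pDC-like cells numbered 100 and 93. A class of 39 and 56 cells had UMIs of both Siglech and Cx3cr1 and of at least 4 of 5 markers of transitional DC. It expressed the markers of Ccr2+ cDC2-like cells besides those of pDC. The Ccr2+ markers summed to 2658 and 2043 CPM, against 2104 and 1880 CPM in Ccr2+ cells and 1339 and 1123 CPM in pDC-like cells. The pDC markers summed to 1667 and 1641 CPM, against 11230 and 9163 CPM in pDC-like cells. The class is called Siglech+ Cx3cr1+ here, and the part that mixed droplets have in it was not tested. Siglech and Bst2 stand in both the transitional and the pDC list, so the gate itself fixes part of the pDC sum of this class. Ly6d, a pDC marker outside its gate, stood at 13.7 and 23.1 CPM (6 and 13 UMIs). In pDC-like cells, whose gate holds Ly6d, it stood at 2157 and 1522 CPM. Cells with 4 or more cDC2 markers that met neither the Ccr2+ nor the Ffar2+ gate numbered 668 and 1496, and their median share of ribosomal protein UMIs was 3.96% and 16.6%. They are called remaining cDC2-marker cells, and "all cDC2-like" stands for these with the Ccr2+ and Ffar2+ classes. Levels are UMIs of a gene summed over a class, in CPM of that class. With 1 library per genotype there was no replicate error and no test, and every interval is a 95% interval for counting error alone.

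Promoter windows of the members whose levels set the classes apart most, or differed between genotypes, are shown because these genes carry the differences below. Each holds the 250 bases before and the 50 bases after a RefSeq start on GRCm38.p6, and RefSeq windows were at hand for 9 of the 10 members, Tcf4 excepted. Capitals mark matches on either strand to TTCNNNGAA, the letters of a STAT site, or to TATAAA, the letters of a TATA box.
Irf8 (chr8:120736108-120736407, plus strand): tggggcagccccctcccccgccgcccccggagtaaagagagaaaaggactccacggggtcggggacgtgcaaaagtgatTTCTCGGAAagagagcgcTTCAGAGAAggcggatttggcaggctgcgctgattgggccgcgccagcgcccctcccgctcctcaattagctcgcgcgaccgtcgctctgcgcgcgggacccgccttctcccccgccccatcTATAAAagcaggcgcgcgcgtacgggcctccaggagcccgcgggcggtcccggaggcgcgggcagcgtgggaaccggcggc
Id2 (chr12:25096043-25096342, minus strand): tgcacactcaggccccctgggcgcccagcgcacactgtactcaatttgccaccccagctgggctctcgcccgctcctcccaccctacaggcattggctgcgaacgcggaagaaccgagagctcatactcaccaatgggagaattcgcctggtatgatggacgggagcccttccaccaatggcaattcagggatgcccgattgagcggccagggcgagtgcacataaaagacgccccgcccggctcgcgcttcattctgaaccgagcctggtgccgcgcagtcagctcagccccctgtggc
Zeb2 (chr2:45117393-45117692, minus strand): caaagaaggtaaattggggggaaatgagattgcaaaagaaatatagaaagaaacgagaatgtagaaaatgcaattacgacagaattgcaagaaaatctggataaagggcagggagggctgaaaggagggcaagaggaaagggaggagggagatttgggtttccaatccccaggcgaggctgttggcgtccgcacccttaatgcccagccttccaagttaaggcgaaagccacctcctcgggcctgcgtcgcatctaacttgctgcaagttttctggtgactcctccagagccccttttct
Spib (chr7:44532022-44532321, minus strand): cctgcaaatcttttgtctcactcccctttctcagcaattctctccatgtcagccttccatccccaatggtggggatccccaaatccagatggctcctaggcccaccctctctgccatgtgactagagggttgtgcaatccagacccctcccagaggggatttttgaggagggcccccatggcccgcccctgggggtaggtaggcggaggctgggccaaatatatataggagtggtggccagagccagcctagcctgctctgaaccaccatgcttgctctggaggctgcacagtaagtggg
In the Irf8 window, TTCNNNGAA began 171 and 153 bases before the start and TATAAA began 31 bases before it. The Id2, Zeb2 and Spib windows printed here held neither. Over all windows of the members, TTCNNNGAA was found in 3 members, Irf8, Batf3 and further starts of Zeb2, and TATAAA in 2, Irf4 and Irf8. TTCNNNGAA stands in 8.3% and TATAAA in 13.6% of all 32851 RefSeq windows of this length, so a match is a description of the letters and not of a bound site. CAGGTG, the E-box that Zeb2 and E proteins can bind, was found in windows of 2 members, Zbtb46 and a second start of Irf8, against 20.2% of all windows. TGANTCA, the AP-1 site that Batf3 can bind with Jun proteins, was found in 2 members, Zbtb46 and a further start of Zeb2, against 7.81% of all windows. The composite element that ETS and IRF factors bind together was found in 0 members and 2.72% of all windows.

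**Figure D1:**
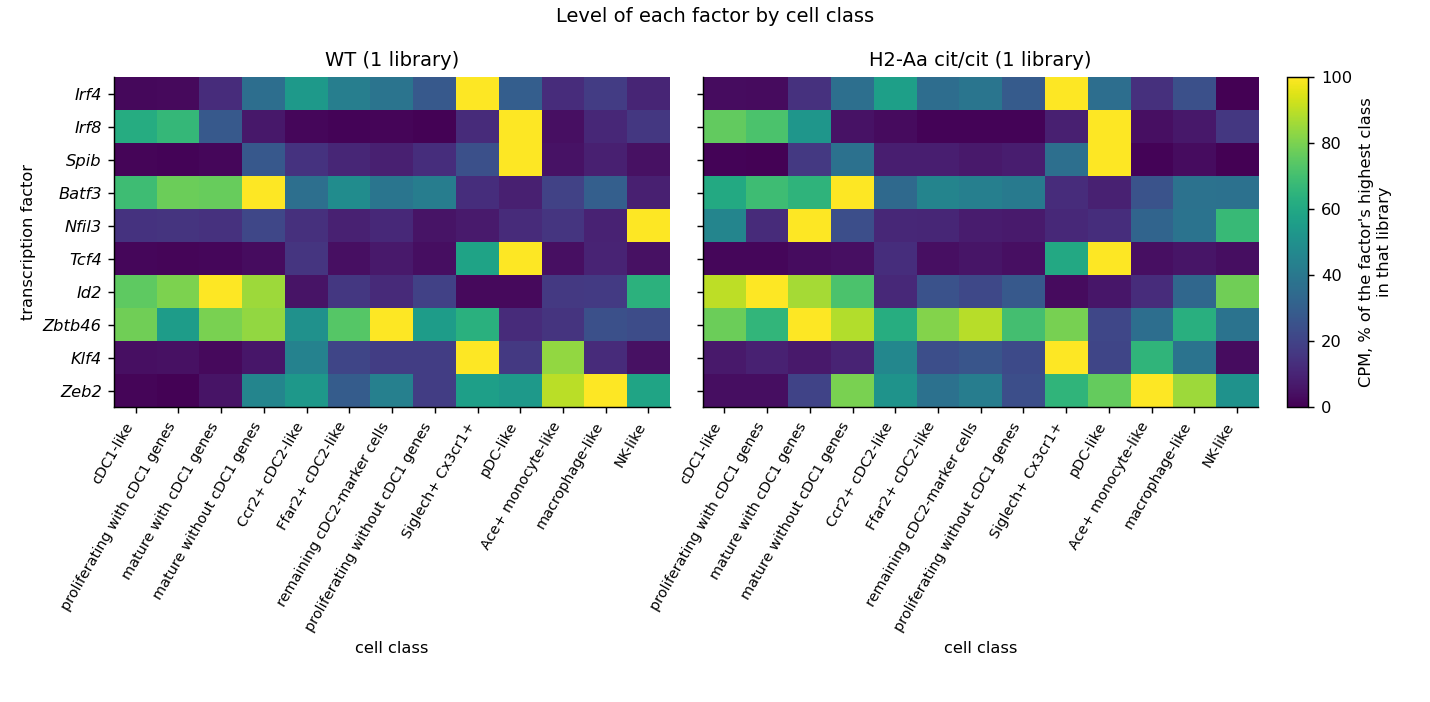
Each factor's CPM in 13 cell classes (columns), as a percentage of its highest class in the same library, for the WT library (left) and the H2-Aa cit/cit library (right). The brightest cells put Irf8, Spib and Tcf4 highest in pDC-like cells and Irf4 and Klf4 highest in Siglech+ Cx3cr1+ cells in both libraries, and the mature class with cDC1 genes (53 and 10 cells) and the NK-like class (28 and 21 cells) are shown without being compared.

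Irf8, without which cDC1 do not form, separated the cDC1-like and pDC-like classes from every cDC2-like class. In cDC1-like cells it stood at 1442 CPM (interval 1410 to 1474) in WT and 1551 CPM (1525 to 1577) in the mutant. In Ffar2+ cDC2-like cells it stood at 20.5 CPM in WT and 20.8 CPM in the mutant, and in Ccr2+ cDC2-like cells at 44.8 and 57.9 CPM. After each cell was thinned to 1500 UMIs, 85.7% of WT and 83.1% of mutant cDC1-like cells had an Irf8 UMI, against 2.90% and 3.38% of Ffar2+ cDC2-like cells. Before thinning these shares were 98.5% and 98.5% against 10.9% and 10.9%, at median depths of 11007 and 14488 UMIs in cDC1-like and 7195 and 6511 UMIs in Ffar2+ cells. Irf8 was about as low in remaining cDC2-marker cells (30.2 and 23.5 CPM) and in proliferating cells without cDC1 genes (11.9 and 20.8 CPM), and in the mutant the intervals of these classes overlapped that of Ffar2+ cells.

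Id2 followed Irf8 into the cDC1-like cells but not into the pDC-like cells. Its level in cDC1-like cells was 704 CPM in WT and 652 CPM in the mutant, against 136 and 164 CPM in all cDC2-like cells. In pDC-like cells it was 22.8 CPM in WT and 42.9 CPM in the mutant, from 24 and 32 UMIs. NK-like cells, another lineage that needs Id2, held 601 and 568 CPM.

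Batf3, the AP-1 partner that keeps Irf8 on in committed cDC1, was spread over the conventional classes rather than confined to cDC1-like cells. Its level in cDC1-like cells was 241 CPM in WT and 219 CPM in the mutant, and in Ffar2+ cDC2-like cells 171 and 162 CPM. It was highest in mature cells without cDC1 genes, at 350 and 360 CPM, and lowest in pDC-like cells, at 31.3 and 33.5 CPM. Nfil3, which acts early in cDC1 precursors, was sparse in every class, with 193 UMIs in all 13 WT classes and 336 in those of H2-Aa cit/cit. In cDC1-like cells it stood at 4.54 CPM in WT and 14.0 CPM in the mutant.

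The factors tied to cDC2 were low in cDC1-like cells. Irf4, which cDC2 need to mature and migrate, was at 3.27 CPM in WT (18 UMIs) and 4.69 CPM in H2-Aa cit/cit (41 UMIs) cDC1-like cells, against 64.5 and 56.7 CPM in all cDC2-like cells. Klf4, which a subset of cDC2 needs, was at 15.3 and 21.2 CPM in cDC1-like cells against 82.0 and 85.3 CPM. Zeb2 was at 28.3 and 62.8 CPM in cDC1-like cells against 690 and 681 CPM. Zeb2 was higher still in other lineages, and stood at 2034 and 1436 CPM in macrophage-like cells, at 1827 and 1682 CPM in Ace+ monocyte-like cells and at 1096 and 1285 CPM in pDC-like cells. The few NK-like cells held 1186 and 857 CPM. An antisense gene, Zeb2os, lies within Zeb2, and the strand setting of the counting is not given in the sources used here.

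Zbtb46, which marks commitment to conventional DC, was at similar levels in both branches. It stood at 284 CPM in WT and 254 CPM in the mutant cDC1-like cells, and at 271 and 261 CPM in all cDC2-like cells. pDC-like cells held 44.6 and 69.7 CPM, and Ace+ monocyte-like cells 54.5 and 118 CPM. The intervals of the pDC-like and the Ace+ class overlapped in WT.

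Of the 10 members, 8 reached 20 CPM on 1 side of the comparison of cDC1-like with all cDC2-like cells in both libraries. Past 2-fold in both libraries, 2 were higher (Irf8 and Id2) and 4 lower (Irf4, Tcf4, Klf4 and Zeb2), where 15.6% of all 6552 genes were called, 4.5% as higher and 11.1% as lower. The median log2 ratio was -0.86 over these 8 members and -0.20 over all genes. The log2 ratio of Irf8 was 5.88 (5.74 to 6.01) in WT and 5.85 (5.76 to 5.94) in the mutant. That of Zeb2 was -4.61 (-4.84 to -4.38) in WT and -3.44 (-3.56 to -3.32) in the mutant, and the difference between the libraries was not tested. Zbtb46 was within 0.07 of 0 in both libraries, with intervals of -0.01 to 0.15 and -0.11 to 0.03. Batf3 was 0.58 and 0.50 higher in cDC1-like cells and fell short of 2-fold. Spib and Nfil3 did not reach 20 CPM in this comparison. Spib had log2 ratios of -3.21 and -2.87, from 11 and 12 UMIs in cDC1-like cells, and Nfil3 of 0.56 and 2.16.

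Among 37 other regulators of DC fixed as a list, 28 reached 20 CPM in this comparison, 1 was higher and 8 lower past 2-fold in both libraries. Mycl, a Myc family factor of cDC1, was the higher one, at 109 CPM in WT and 75.6 CPM in the mutant cDC1-like cells against 28.4 and 20.6 CPM. Relb, an NF-kB subunit that cDC2 need, was lower by the largest ratio, at 73.5 and 54.7 CPM against 554 and 346 CPM. Runx2, Runx3, Rel, Bcl11a, Jun and Ikzf1 were lower too, with log2 ratios of -2.37 to -1.18 in WT and -2.34 to -1.27 in the mutant. The eighth lower regulator, Etv3, was named after its values were seen, with log2 ratios of -1.05 and -1.27.

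Tcf4 stepped down from pDC-like through Siglech+ Cx3cr1+ and Ccr2+ to Ffar2+ cells. It stood at 3470 CPM (3359 to 3585) in WT and 3448 CPM (3316 to 3584) in the mutant pDC-like cells. In Siglech+ Cx3cr1+ cells it was at 2019 and 2080 CPM, in Ccr2+ cells at 535 and 445 CPM, and in Ffar2+ cells at 142 and 141 CPM. None of these 4 intervals overlapped its neighbor in either library. cDC1-like cells held 64.1 and 54.3 CPM.

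Irf8 was lower already in the second class, going from 2331 and 2044 CPM in pDC-like cells to 290 and 176 CPM in Siglech+ Cx3cr1+ cells. Spib, an ETS factor of pDC, went from 169 CPM (145 to 196) in WT and 122 CPM (98.3 to 150) in the mutant pDC-like cells to 41.1 and 44.5 CPM in Siglech+ Cx3cr1+ cells. The Siglech+ Cx3cr1+ cells thus lay nearer to pDC-like cells in Tcf4 than in Irf8 in both libraries.

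Irf4 and Klf4 had their highest values in the Siglech+ Cx3cr1+ class. Irf4 there was at 148 CPM (115 to 189) in WT and 144 CPM (115 to 179) in the mutant, against 44.6 and 52.3 CPM in pDC-like and 80.1 and 81.4 CPM in Ccr2+ cells. Klf4 there was at 356 CPM (303 to 417) and 306 CPM (262 to 355), against 58.8 and 64.4 CPM in pDC-like and 158 and 142 CPM in Ccr2+ cells. Ace+ monocyte-like cells came next for Klf4, at 299 CPM (263 to 338) and 201 CPM (173 to 232), and overlapped the Siglech+ Cx3cr1+ interval in WT. Zbtb46 already reached 231 and 260 CPM in Siglech+ Cx3cr1+ cells. Id2 stayed at 25.1 and 21.4 CPM there, from 11 and 12 UMIs, and stood at 49.0 and 83.8 CPM in Ccr2+ and 153 and 184 CPM in Ffar2+ cells. Zeb2 was at a similar level in the first 3 classes of the WT library (1096, 1144 and 1082 CPM, with overlapping intervals) and at 596 CPM in Ffar2+ cells. In the mutant it stepped down over the same classes, at 1285, 1102, 867 and 631 CPM.

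**Figure D2:**
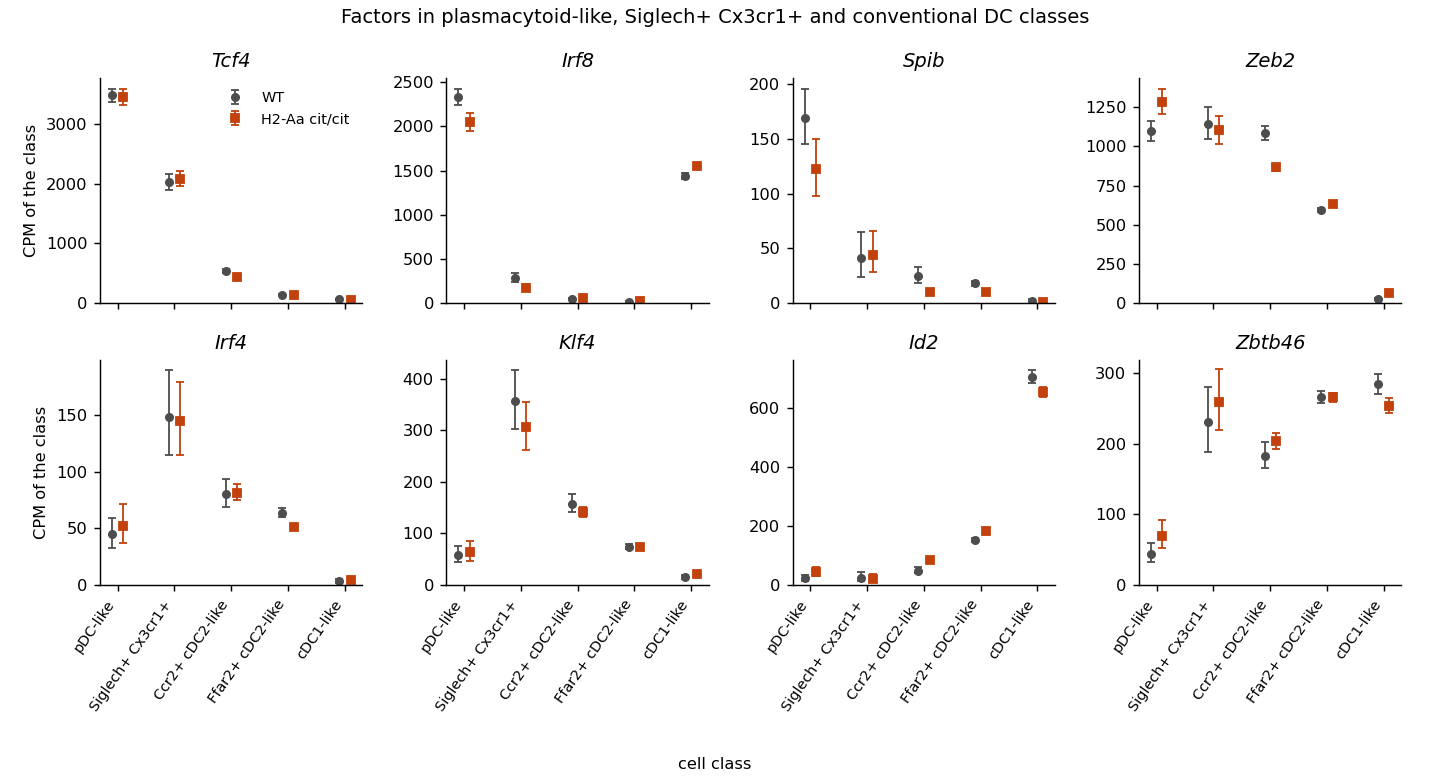
CPM of 8 factors (y axis, from 0, its own scale in each panel) in pDC-like, Siglech+ Cx3cr1+, Ccr2+ cDC2-like, Ffar2+ cDC2-like and cDC1-like cells, with circles for WT, squares for H2-Aa cit/cit and 95% intervals for counting error. Tcf4 steps down from 3470 to 142 CPM in WT from the first to the fourth class, Irf4 and Klf4 peak in the second, and Irf8 and Id2 are high again in cDC1-like cells.

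Between pDC-like and Siglech+ Cx3cr1+ cells, 9 members could be compared, of which 2 were higher in pDC-like cells (Irf8 and Spib) and 3 lower (Irf4, Zbtb46 and Klf4) past 2-fold in both libraries, where 10.2% of 6659 genes were called (6.43% higher and 3.75% lower). Between Siglech+ Cx3cr1+ and Ccr2+ cells, 3 of 9 were higher (Irf8, Tcf4 and Klf4) and 1 lower (Batf3), against 5.05% of 6435 genes (2.24% higher and 2.81% lower). Between Ccr2+ and Ffar2+ cells, 2 of 8 were higher (Irf8 and Tcf4) and 1 lower (Id2), against 5.72% of 6503 genes (2.05% higher and 3.68% lower). Klf4 was 1.09 higher on the log2 scale in Ccr2+ cells in WT and 0.94 higher in the mutant, on either side of 2-fold. Between pDC-like and all cDC2-like cells, 3 of 9 were higher (Irf8, Spib and Tcf4) and 3 lower (Batf3, Id2 and Zbtb46), against 17.9% of 6936 genes (9.08% higher and 8.82% lower). The median log2 ratio over the members compared ran from -0.32 to 0.86 in these 4 comparisons, and over all genes from -0.09 to 0.05.

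Proliferating cells were set beside the class of their own branch. Proliferating cells with cDC1 genes against cDC1-like cells called 0 of 6 members, where 6.03% of 6203 genes were called (5.55% higher and 0.484% lower), and proliferating cells without cDC1 genes against Ffar2+ cells called 0 of 8, where 8.69% of 6835 genes were called (7.78% higher and 0.907% lower). With so few members compared, 0 calls lie near these shares. Zeb2 in proliferating cells with cDC1 genes was past 2-fold in the WT library only, at 13.0 against 28.3 CPM, and in the mutant stood at 60.7 against 62.8 CPM. Irf8 was at 1553 and 1469 CPM in proliferating cells with cDC1 genes. In Ace+ monocyte-like cells against all cDC2-like cells, 3 of 8 were higher (Irf8, Klf4 and Zeb2) and 2 lower (Irf4 and Zbtb46), where 10% of 6682 genes were called (6.24% higher and 3.79% lower).

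Mature DC, which express Ccr7 and Fscn1, carried more of several factors than Ffar2+ cells. Against Ffar2+ cells, 4 of 9 members were higher in mature cells without cDC1 genes (Irf8, Spib, Batf3 and Id2) and 1 was lower (Klf4), where 20.4% of 6693 genes were called (9.8% higher and 10.6% lower). Id2 stood at 798 and 519 CPM against 153 and 184 CPM. This mature class allowed up to 2 cDC1 markers. Its cells with none held 667 and 536 CPM of Id2 and 88.8 and 88.7 CPM of Irf8. Spib was at 46.8 and 45.4 CPM against 18.2 and 10.4 CPM. Klf4 was at 22.3 and 30.4 CPM against 74.2 and 73.8 CPM. Irf4 did not differ past the fold, at 53.5 and 52.4 CPM against 63.6 and 51.3 CPM.

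Within the mature cells, some of the factors ran with the number of cDC1 markers that had a UMI. WT cells with no such marker (1203 cells) held 88.8 CPM of Irf8, those with 1 (370 cells) 209 CPM, those with 2 (120 cells) 311 CPM, those with 3 or 4 (55 cells) 260 CPM and those with 5 or more (53 cells) 652 CPM. Over the same groups Zeb2 was at 1186, 594, 271, 232 and 106 CPM, and Irf4 at 67.2, 32.1, 27.0, 12.1 and 18.7 CPM. Id2 was at 667, 975, 1111, 1112 and 935 CPM. Batf3, also a factor of the cDC1 branch, did not rise with the markers, at 367, 338, 289, 305 and 269 CPM. Zbtb46 was at 299, 309, 318, 250 and 290 CPM. Irf8 and Id2 were thus higher, and Zeb2 and Irf4 lower, in the WT mature cells that carried cDC1 markers. Their median depth also rose with the number of markers, from 6252 to 17862 UMIs, and its part in the order was not tested.

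In the mutant, few mature cells carried cDC1 markers, and the order held in part. The mutant groups with 0, 1 and 2 markers were shallower than those of WT. Their median depth was 5000, 6721 and 7558 UMIs against 6252, 8131.5 and 11668.5, and its part in the contrasts between genotypes was not tested. Zeb2 was at 1390 CPM in cells with no cDC1 marker (939 cells), 1105 CPM with 1 marker (143 cells) and 1468 CPM with 2 (22 cells), and Irf8 at 88.7, 168 and 57.9 CPM over these groups. From no marker to 1 marker both went in the WT direction with intervals that did not overlap, and the 22 cells with 2 markers departed from it. Irf4 did not fall as in WT. It was at 50.7, 61.1 and 48.3 CPM over these groups, with overlapping intervals, against 67.2, 32.1 and 27.0 CPM in WT. Id2 was at 536, 486 and 285 CPM over these groups, against 667, 975 and 1111 CPM in WT. With 3 or more cDC1 markers there were 108 of 1801 mature cells in WT and 14 of 1118 in the mutant. The 10 mutant cells with 5 or more did resemble their WT counterparts in direction, with Irf8 at 1072 CPM (932 to 1227), Zeb2 at 337 CPM (261 to 429) and Irf4 at 20.4 CPM (5.56 to 52.3). With no cDC1 marker Irf8 stood at 88.8 and 88.7 CPM, and the interval of the log2 ratio was -0.18 to 0.17. With 1 marker Id2 stood at 975 CPM (941 to 1009) in WT and 486 CPM (446 to 528) in the mutant, below every WT group.

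**Figure D3:**
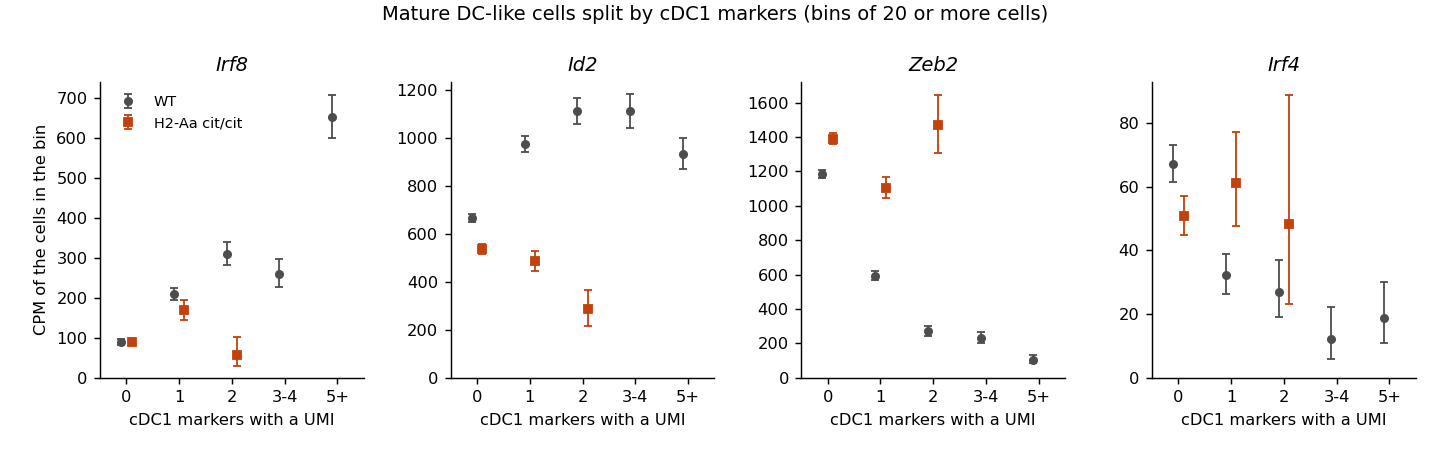
CPM of Irf8, Id2, Zeb2 and Irf4 (y axis, from 0, its own scale in each panel) in mature DC-like cells grouped by the number of 12 cDC1 markers with a UMI (x axis), for groups of 20 or more cells, with 95% intervals for counting error. In WT (circles) Irf8 goes from 88.8 to 652 CPM and Zeb2 from 1186 to 106 CPM, while the 3 H2-Aa cit/cit groups (squares) keep Zeb2 at 1105 CPM or more.

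The comparison of genotypes asks whether loss of MHC-II went with another setting of the factors within a class. Of 110 pairs of a member and a class, 90 reached 20 CPM in either library, and 18 of these were past 1.5-fold, 11 higher and 7 lower in the mutant. The share of all genes past 1.5-fold ran from 4.07% in Ffar2+ cells to 42.3% in macrophage-like cells (20.2% higher and 22.1% lower), the class of 99 and 67 cells with a median of 1323 and 1562 UMIs. Shares of the other classes are given below. They were not combined over the 90 pairs, so the count of 18 is not read as a result about the members. The macrophage-like class gave 5 of the 18 pairs (Irf8 and Tcf4 lower, Id2, Zbtb46 and Klf4 higher), and Irf8 and Id2 there changed sign under other settings.

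In Ffar2+ cells, the largest class, 0 of 8 members were past 1.5-fold, where 2.2% of genes were higher and 1.87% lower. Irf8, Klf4 and Tcf4 had log2 ratios of mutant to WT of 0.02, -0.01 and -0.02 there, and Zbtb46 stood at 266 CPM in both, each with an interval of the ratio that included 0. Irf4 stood at 63.6 and 51.3 CPM, a log2 ratio of -0.31 (-0.43 to -0.19). Id2 stood at 153 and 184 CPM, a log2 ratio of 0.27 (0.20 to 0.34). The median log2 ratio was -0.01 over the 8 members and -0.04 over 6579 genes. In remaining cDC2-marker cells 0 of 8 members were past 1.5-fold, where 17.6% of genes were called (7.41% higher and 10.2% lower) and the median gene was at -0.12.

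Spib was lower in the H2-Aa cit/cit library in most classes. In Ccr2+ cells it stood at 25.0 CPM in WT (18.7 to 32.7, 53 UMIs) and 10.5 CPM in H2-Aa cit/cit (8.09 to 13.4, 65 UMIs), a log2 ratio of -1.25 (-1.80 to -0.70). In proliferating cells without cDC1 genes it stood at 22.2 and 9.58 CPM, a log2 ratio of -1.21 (-1.88 to -0.55), where 6.39% of genes were called (3.42% higher and 2.97% lower). Of 11 classes, 10 had a lower Spib in H2-Aa cit/cit and 5 an interval wholly below 0, and these classes come from the same pair of libraries. Some of the 10 rest on few UMIs: cDC1-like (11 and 12), proliferating with cDC1 genes (2 and 1), Ace+ (7 and 1) and macrophage-like cells (5 and 1). The share of all genes lower in as many classes is not given here. Jun was also lower in every compared class but macrophage-like cells, so the count is not read as particular to Spib. In Ffar2+ cells, where it missed the minimum of 20 CPM, Spib was at 18.2 and 10.4 CPM, with UMIs in 210 of 2018 WT and 250 of 4029 mutant cells. In mature cells the log2 ratio was -0.04 (-0.25 to 0.16), an interval that included 0. In Ccr2+ cells it stayed past 1.5-fold in all 10 other settings, at -1.28 to -1.05, but these settings reuse the same 2 libraries. Those that drop mature or cDC1-like cells leave Ccr2+ cells unchanged and are no check here. In both called classes Spib met the minimum of 20 CPM only in WT, the library where it was higher, so the minimum favored these calls. The summed pDC markers of Ccr2+ cells were 502 CPM in WT, with 1 of 10 markers at 0, and 430 CPM in H2-Aa cit/cit, and their part in the difference was not tested.

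Id2 differed in opposite directions between classes. In Ccr2+ cells it was higher in H2-Aa cit/cit, at 83.8 against 49.0 CPM, a log2 ratio of 0.77 (0.47 to 1.09), where 5.21% of 6525 genes were called (3.37% higher and 1.84% lower). With 1 marker fewer required for the gates this ratio was 0.35, and with 1 more 0.57, both under 1.5-fold. In mature cells without cDC1 genes it was lower, at 519 against 798 CPM, a log2 ratio of -0.62 (-0.68 to -0.56), where 10.5% of 6270 genes were called (5.89% higher and 4.64% lower). Among mature cells with no cDC1 marker the ratio was -0.31 (-0.38 to -0.25), short of 1.5-fold, as were the mean over cells (-0.45) and the class without cells over 2 times its median UMIs (-0.41). Irf8 and Zeb2 in mature cells without cDC1 genes had log2 ratios of -0.52 and 0.54, also short of it. In pDC-like cells Id2 was higher, at 42.9 against 22.8 CPM, where 14.3% of 7006 genes were called (6.67% higher and 7.62% lower), and in Ace+ monocyte-like cells lower, at 91.6 against 154 CPM, where 17.6% of 6870 genes were called (6.8% higher and 10.8% lower). The ratio in Ace+ cells went from -0.75 to -0.32 with either 1 marker fewer or 1 more, which ended the call. No difference between classes was tested.

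Zbtb46 was higher in H2-Aa cit/cit in the classes where it was low. In pDC-like cells the log2 ratio was 0.64 (0.05 to 1.25), in Ace+ monocyte-like cells 1.11 (0.60 to 1.65), and in macrophage-like cells 1.23 (0.56 to 1.92). With 1 marker fewer required the first 2 of these were 0.51 and 0.55, under 1.5-fold. In cDC1-like, Ccr2+, Ffar2+ and mature cells the ratio lay between -0.16 and 0.15. In remaining cDC2-marker cells, where Zbtb46 was highest in WT, it was -0.31 (-0.42 to -0.20), and 0.17 without cells under 10% ribosomal protein UMIs. In proliferating cells without cDC1 genes it was 0.20 (0.02 to 0.37). Irf8 was lower in Siglech+ Cx3cr1+ cells of H2-Aa cit/cit, at 176 against 290 CPM, a log2 ratio of -0.72 (-1.11 to -0.33) in a class where 23.7% of genes were called (11.9% higher and 11.9% lower). This ratio was -0.44 with 1 marker fewer and -0.57 as a mean over cells, both under 1.5-fold. Irf8 was higher in proliferating cells without cDC1 genes, at 20.8 against 11.9 CPM, from 87 and 22 UMIs, a log2 ratio of 0.81 that was under 1.5-fold in 3 of 10 other settings and 0.45 in the lowest, without cells under 10% ribosomal protein UMIs. It met the minimum of 20 CPM only in the mutant, where it was higher.

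In cDC1-like cells, 1 of 7 members, Zeb2, was past 1.5-fold, where 17.8% of 6280 genes were called (9.67% higher and 8.15% lower). Zeb2 stood at 28.3 CPM (24.1 to 33.1) in WT and 62.8 CPM (57.7 to 68.3) in the mutant, a log2 ratio of 1.15 (0.89 to 1.42). Its UMIs came from 63 of 471 WT and 137 of 606 mutant cells, and the 10 cells with most held 53.8% and 33.7% of them, while the intervals treat UMIs as independent. With 1 marker fewer required for the gates the ratio was 0.30. It turned to -0.33 (-0.96 to 0.30) in cDC1-like cells with fewer than 3 cDC2 markers, which held 16.5 CPM in WT and 13.1 CPM in the mutant. Cells with 3 or more cDC2 markers were 41.0% of WT and 51.0% of mutant cDC1-like cells, and in these Zeb2 stood at 38.0 and 99.8 CPM. The higher Zeb2 of the mutant cDC1-like class thus lay in the cells that also had cDC2 markers. Sirpa, the 1 cDC2 marker measured in this split, stood in these cells at 36.0 CPM (29.5 to 43.4) in WT and 44.3 CPM (38.7 to 50.6) in the mutant, with overlapping intervals. These cells were deeper as well, with a median of 15285 and 16318 UMIs against 6695 and 12700 in the others, and the part of depth was not tested.

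Summed markers of some other cells, though not of all, were higher in the mutant cDC1-like cells as well. Those of mature DC were lower there, at 711 CPM in WT and 256 CPM in the mutant. In cDC1-like cells the cDC2 markers summed to 407 CPM in WT and 538 CPM in the mutant, the macrophage markers to 36.5 and 88.2 CPM, the neutrophil-lineage markers to 1.45 and 18.1 CPM (8 and 158 UMIs) and the plasma cell markers to 5.45 and 138 CPM. None of the 15 cDC2 markers, 2 of the 10 macrophage markers, 6 of the 10 neutrophil-lineage markers and 3 of the 7 plasma cell markers were at 0 in WT. A sum does not speak for each of its markers. Igkc, of the plasma cell list, went against its sum, from 2.36 CPM in WT to 0.458 CPM in the mutant (13 and 4 UMIs). The plasma cell sum is thus not read as a sign of plasma cell RNA. C1qb, of the macrophage list, stood at 1.09 and 2.40 CPM (6 and 21 UMIs). The other markers of these 2 lists are not given singly here. The part of the summed markers in the Zeb2 difference was not tested beyond the split by cDC2 markers. Proliferating cells with cDC1 genes, of which there were 61 and 67, had a like difference, with Zeb2 at 13.0 and 60.7 CPM (14 and 81 UMIs, 100% and 72.8% of them in 10 cells or fewer), where 16.3% of genes were called (9.9% higher and 6.41% lower). Klf4 there was at 15.8 and 27.7 CPM, with an interval of the log2 ratio from -0.05 to 1.73. In this class Zeb2 and Klf4 met the minimum of 20 CPM only in the mutant, where they were higher.

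Nfil3 in cDC1-like cells was under the minimum of 20 CPM and so was not counted, but its levels stood apart. It was at 4.54 CPM (2.94 to 6.70) in WT and 14.0 CPM (11.6 to 16.7) in the mutant, a log2 ratio of 1.62 (0.99 to 2.30). UMIs were found in 23 of 471 WT and 108 of 606 mutant cells, with at most 2 in a WT cell and 3 in a mutant cell. The ratio was 1.62 both in cells with fewer than 3 cDC2 markers and in cells with 3 or more. Irf8, Batf3, Id2 and Zbtb46 in cDC1-like cells had log2 ratios of 0.11, -0.14, -0.11 and -0.16.

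**Figure D4:**
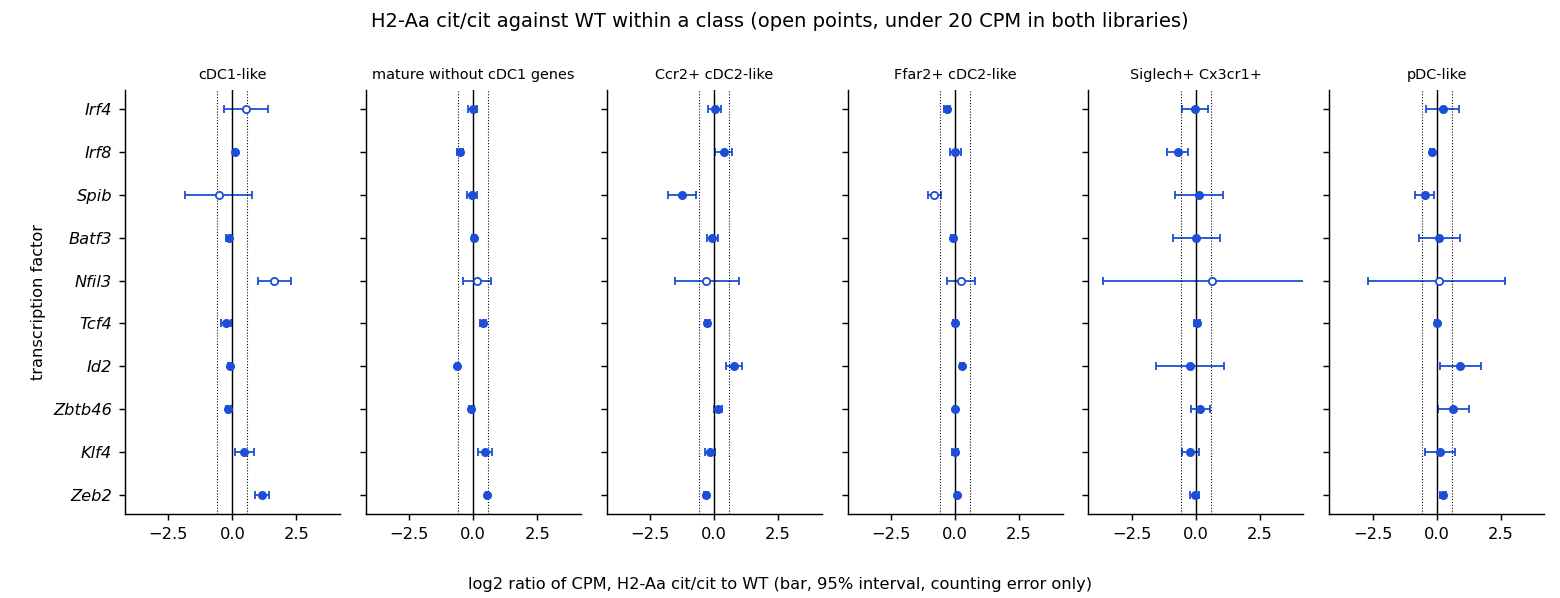
Log2 ratio of CPM between genotypes (mutant over WT) for the 10 factors in 6 classes, with 95% intervals for counting error, dotted lines at 1.5-fold and open points for factors under 20 CPM in both libraries. Ffar2+ cells hold no filled point past the lines, Spib lies at -1.25 and Id2 at 0.77 in Ccr2+ cells, Id2 at -0.62 in mature cells and Zeb2 at 1.15 in cDC1-like cells.

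Across the 22 levels that 11 classes and 2 libraries give, the members fell into pairs that moved together or apart. Batf3 and Id2 had a Pearson r of 0.90 and Spib and Tcf4 of 0.80, on log2(CPM + 5). Tcf4 and Id2 had an r of -0.89 and Tcf4 and Batf3 of -0.87. These points share libraries and classes of unequal depth, so r is a description. The genes most like a member, among those with at least 50 CPM in any point, were Gng12 for Irf8 (0.94), Zfp366 for Batf3 (0.95), Lag3 for Tcf4 (0.96), Cd1d1 for Id2 (0.92), Il7r for Spib (0.94), Ddr1 for Irf4 (0.93), Tent5a for Klf4 (0.93), Dexi for Zbtb46 (0.80) and Fcer1g for Zeb2 (0.95), with the antisense gene Zeb2os next (0.94). For Nfil3 the most alike gene was Creg1, with an r of 0.67.

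The members lie at separate loci. On GRCm38, by GENCODE vM21, Irf8 spans chr8:120736358-120756694 and Batf3 chr1:191097847-191108945 on the plus strand. Id2 spans chr12:25093799-25097140, Zeb2 chr2:44983632-45117395, Zbtb46 chr2:181387762-181459426 and Spib chr7:44525993-44532071 on the minus strand. Irf4 and Nfil3 lie on chromosome 13, at 30749226-30766976 and 52967209-52981073, Klf4 at chr4:55527143-55532466 and Tcf4 at chr18:69343356-69689079. Counts are of whole genes, so exons, introns and isoforms cannot be told apart.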

How the data were processed

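Spleen cells were captured by 10x 3′ chemistry. Reads were turned by the authors into raw UMI counts with Cell Ranger 5.0.1 on the GRCm38 build, and these counts were deposited for called cells without normalization. The annotation release, the strand setting and whether intronic reads were counted are not given in the sources used here. Seurat, also in the submitters' processing notes, was not used here.

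Cells were gated by the number of listed markers with a UMI. Minimum numbers were set after the marker distributions had been seen, and the members and lists were chosen with earlier results of these data known. Cells in conflicting gates (93 WT, 102 H2-Aa cit/cit), cells of other lineages (31 and 27) and ungated cells (1951 and 2549, median 2214 and 1879 UMIs) were left out. Conflicting gates were more than 1 lineage gate, or the mature gate together with the proliferating gate. A mature or proliferating gate together with a lineage gate other than cDC1-like counted as conflicting too. No doublet caller was run; leaving out cells over 2 times the median UMIs of their class was an alternative. Counts were summed per class and scaled to CPM, with exact Poisson intervals for levels, exact conditional binomial intervals for ratios and exact Clopper-Pearson intervals for shares. A gene was compared between genotypes if it reached 20 CPM in 1 of the libraries, and between classes if it reached 20 CPM in 1 of the classes in each library, and was called past 1.5-fold between genotypes or past 2-fold in both libraries between classes. All 10 members were named by rule. Of the other regulators, the 8 with the largest absolute mean log2 ratio of cDC1-like to cDC2-like cells, in either direction, were named. The most alike gene excluded markers, members and predicted genes. Mice were pooled in a library, so spread between mice was not measured. Python 3.11.15, numpy 2.4.6, scipy 1.17.1, pandas 2.3.3 and matplotlib 3.10.9 were used. The comparison between genotypes was tested on Poisson counts simulated for the Ffar2+ class alone. That simulation does not cover small classes or UMIs held by few cells. Alternatives, 3 of them chosen after seeing the data, are given with the limits, and 1 further alternative is not reported here.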

Additional observations from a re-analysis of the deposited data

How the results depend on the processing

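The count of members past 2-fold between cDC1-like and cDC2-like cells was 6 in all 10 other settings of scaling, gates and cells, and 7 with no minimum level. The same 6 members were called each time. Leaving out mature cells that had a cDC1 marker does not touch this comparison and is no check on it. The count of pairs past 1.5-fold between genotypes was 14 to 20 against 18 in these 10 settings, and 28 of 110 with no minimum level, where pairs of few UMIs enter. Of the 18 pairs past 1.5-fold, 7 stayed past it in all 10 settings. The settings that drop mature cells with a cDC1 marker or cDC1-like cells with cDC2 markers leave every other class unchanged. For pairs of those other classes they are no check. Among these 7, Spib in Ccr2+ cells and in proliferating cells without cDC1 genes met the minimum only in WT, where it was higher. Zeb2 and Klf4 in proliferating cells with cDC1 genes met it only in the mutant, where they were higher. The other 11 pairs fell under 1.5-fold in at least 1 setting, and 3 of these changed sign. Zeb2 in cDC1-like cells went to -0.33 without cells that had 3 or more cDC2 markers. In macrophage-like cells Irf8 went to 0.095 and Id2 to -0.78 without cells over 2 times the median UMIs of their class, and Id2 to -0.25 as a mean over cells; the cause was not tested. Ratios not past 1.5-fold are not in this count, and some of these changed sign too, such as Irf4 in cDC1-like cells (18 and 41 UMIs), which went from 0.52 to -1.33 without cells that had 3 or more cDC2 markers. Shares of cells with a UMI moved in 78 of 80 cases without thinning. Scaling by the median ratio shifted remaining cDC2-marker cells by 0.12. The alternatives without shared barcodes, without mature cells that had a cDC1 marker and without cDC1-like cells that had 3 or more cDC2 markers were chosen after seeing the data. No paired analysis was possible because each genotype has 1 library. With 1 library a group, no difference between genotypes has a replicate check, genotype and library cannot be told apart, and depth limits Nfil3 and Spib most.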

Other observations

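Among the 37 other regulators, the size of the difference between genotypes was largest in cDC1-like cells for Cebpb, a factor of myeloid and stress responses, which was chosen here after its values were seen. Cebpb stood at 5.45 CPM in WT and 68.0 CPM in mutant (H2-Aa cit/cit) cDC1-like cells, a log2 ratio of 3.64 (3.11 to 4.22), and at 6.51 and 36.0 CPM in proliferating cells with cDC1 genes. In both classes Cebpb met the minimum of 20 CPM only in the mutant, where it was higher, so the minimum favored this choice. Its UMIs in the cDC1-like class were 30 and 594, and the interval makes no allowance for choosing among 37 regulators. The neutrophil-lineage markers of the same cDC1-like cells summed to 1.45 CPM in WT and 18.1 CPM in the mutant. Their part in the Cebpb difference was not tested. Of the 29 other regulators compared in cDC1-like cells, 3 were higher and 5 lower past 1.5-fold, where 9.67% of 6280 genes were higher and 8.15% lower. Bcl11a, a factor of pDC and B cells, was lower there, at 127 against 302 CPM, and in remaining cDC2-marker cells, at 725 against 899 CPM. It went the other way in proliferating cells with cDC1 genes (232 against 211 CPM) and in mature cells without cDC1 genes (179 against 115 CPM). Bcl11a was also higher in Ccr2+ (570 against 529 CPM), Siglech+ Cx3cr1+ (1077 against 911 CPM) and Ace+ monocyte-like cells (361 against 283 CPM). So it was in macrophage-like cells (377 against 279 CPM) and proliferating cells without cDC1 genes (702 against 594 CPM). In Ffar2+ (638 against 664 CPM) and pDC-like cells (1007 against 1026 CPM) it was lower. Jun was lower in both cDC1-like (72.4 against 133 CPM) and Ffar2+ cells (227 against 371 CPM). Runx2 was lower in Ccr2+ (193 against 292 CPM) and Ffar2+ cells (180 against 275 CPM). Neither difference was confined to these classes. Jun was also lower in Siglech+ Cx3cr1+ cells (180 against 397 CPM), and Runx2 in remaining cDC2-marker cells (186 against 323 CPM). Of the 11 classes compared, Jun was higher in the mutant only in macrophage-like cells (179 against 147 CPM). Runx2 was higher only in Ace+ monocyte-like cells (328 against 312 CPM) and in proliferating cells with cDC1 genes.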
